A study of Mus musculus with 113 samples.

Results

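The libraries described here were 15 of the 113 samples of the series: 8 mouse 2-cell embryos injected with base editor (BE) mRNA and no guide, and 7 injected with the Nr5a2 guide RNA (sgRNA) and no editor. They were chosen by their labels, and an 8th library of the sgRNA group was left out because its column header gave the 4-cell stage. All embryos were wild type and came from superovulated females, which the study's methods give as C57BL/6N mated to PWK/PhJ males, and the labels give a dose of 100 ng/µl for the editor mRNA and 100 ng/µl for the guide. The 2 groups served as controls for embryos that received both, in which the editor was meant to place a stop codon in exon 3 of Nr5a2, and the comparison asks whether the controls differed from each other and how far single embryos of 1 group differed. Headers named the editor eBE in BE embryos 1 to 4 and BE4 in BE embryos 5 to 8, so the BE group held 2 editor names, and the headers of the sgRNA embryos named none. The study presents its editing results embryo by embryo, while its RNA-seq methods state several embryos per sample; each library is treated here as 1 embryo, and the labels do not settle it. Nothing said whether embryos shared a mother or an injection session, so all p-values measure only the spread between these libraries.

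At the late 2-cell stage the mouse embryo hands control from RNA stored in the oocyte to its own genome. A first, minor wave of zygotic genome activation (ZGA) turns on a short-lived set of genes such as the Zscan4 and Tcstv families, and a second, major wave turns on genes for translation, metabolism and division while oocyte RNA is cleared. A cytosine base editor joins a deaminase to a Cas9 that cuts only 1 strand, and it is brought to its site by a guide; a guide without a Cas9 protein has no enzyme to direct. NR5A2 is an orphan nuclear receptor that binds DNA as a monomer and is expressed in the early embryo.

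Values were FPKM (fragments per kilobase of transcript, scaled to the mapped fragments of a library) for 24006 genes, so the number of reads behind a value is unknown. The spacing of the lowest values put relative depth between 0.764 and 1.30 over the 15 libraries. Its mean was lower in BE (0.903) than in sgRNA embryos (1.04; exact permutation test, two-sided, p = 0.0702, Benjamini-Hochberg adjusted p = 0.286 over 5 values tested). Without sgRNA embryos 1 and 2, a step that was not planned, the unadjusted exact permutation p was 0.0373. The total FPKM of a library ran from 197633 to 375454 in BE embryos and from 150877 to 326026 in sgRNA embryos, a difference of 46294 between means (exact permutation test, two-sided, p = 0.172, Benjamini-Hochberg adjusted p = 0.286 over 5 values tested). Between 10146 and 11921 genes reached 1 FPKM in the BE embryos and between 9372 and 11128 in the sgRNA embryos (exact permutation p = 0.606, adjusted p = 0.758). sgRNA embryos 1 and 2 stood apart: Rn45s, the ribosomal RNA precursor (named after its values were seen), was at 25930 and 28932 FPKM there, against 6642 to 12001 in the other 13 embryos, and they had the lowest FPKM sums. Several results below are also given without them, which was not planned. The difference in total FPKM was then 16426 (exact permutation p = 0.614). It had to fall, since the 2 lowest sums were taken out of 1 group, so this value tests nothing. Runs of library numbers were set by the lowest and highest header number with an editor name. The eBE numbers (93 to 106) held BE embryos 1 to 4 and sgRNA embryos 4 to 7, the only run with both groups by this rule. sgRNA embryos 1 to 3, at numbers 87, 90 and 92, fell outside it by the rule and not by a gap, since 92 is next to 93. BE embryos 5 to 8 lay in the run from 71 to 82, shared with embryos that received both agents and with no sgRNA embryo. Nothing in the labels says that these runs are batches.

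Nr5a2 (mm9 chr1:138740161-138857004, minus strand), the gene the guide was made against, was expressed in every embryo. It was at 26.5, 70.8, 51.3, 14.2, 2.65, 19.8, 23.0 and 9.79 FPKM in BE embryos 1 to 8, with a mean of 27.3 ± 22.8 (SD, n = 8). In sgRNA embryos 1 to 7 it was at 4.12, 8.19, 15.0, 6.34, 33.9, 6.62 and 11.3 FPKM, with a mean of 12.2 ± 10.2 (SD, n = 7). The groups overlapped: 7 of 8 BE embryos lay above the sgRNA median, but BE embryo 5 was the lowest of all 15, and only BE embryos 2 and 3 lay above every sgRNA embryo. On the scale of log2(FPKM + 1) the difference, BE minus sgRNA, was 0.91 ± 0.55 (SE), with a 95% interval from -0.24 to 2.06 (limma, p = 0.113, Benjamini-Hochberg adjusted p = 0.868 over 12329 genes). It was 1.51 (limma, unadjusted p = 0.0354) within the shared run of library numbers, 0.64 without sgRNA embryos 1 and 2, and 1.27 without BE embryo 5. The lowest and the highest of the 15 embryos differed 26.7-fold.

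The other nuclear receptors varied in the same range. Nr2c2, an orphan receptor that binds direct repeats, was at 6.37 to 34.2 FPKM in BE embryos (median 20.0) and at 0.794 to 18.5 in sgRNA embryos (median 5.38). All 8 BE embryos lay above the sgRNA median and 4 lay above every sgRNA embryo, a log2 difference of 1.26 ± 0.50 (SE; limma, p = 0.0209, adjusted p = 0.868). Nr1h3, the oxysterol receptor LXR alpha, was at 0.273 to 19.1 FPKM in BE embryos and at no more than 2.21 in sgRNA embryos, with a log2 difference of 1.12 ± 0.55 (SE). Rarg, a retinoic acid receptor, had medians of 14.2 and 9.76 FPKM and overlapped fully (log2 difference 0.20, 95% interval from -0.75 to 1.14), and its sign changed under other scalings and without sgRNA embryos 1 and 2. Esrrb, an estrogen-related receptor of pluripotent cells, stayed under 5 FPKM in all embryos (log2 difference -0.06, 95% interval from -0.74 to 0.63; the sign turned in the fit by replicate number and in some fits that left out 1 embryo). None of the 5 receptors passed the adjusted threshold.

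**Figure D1:**
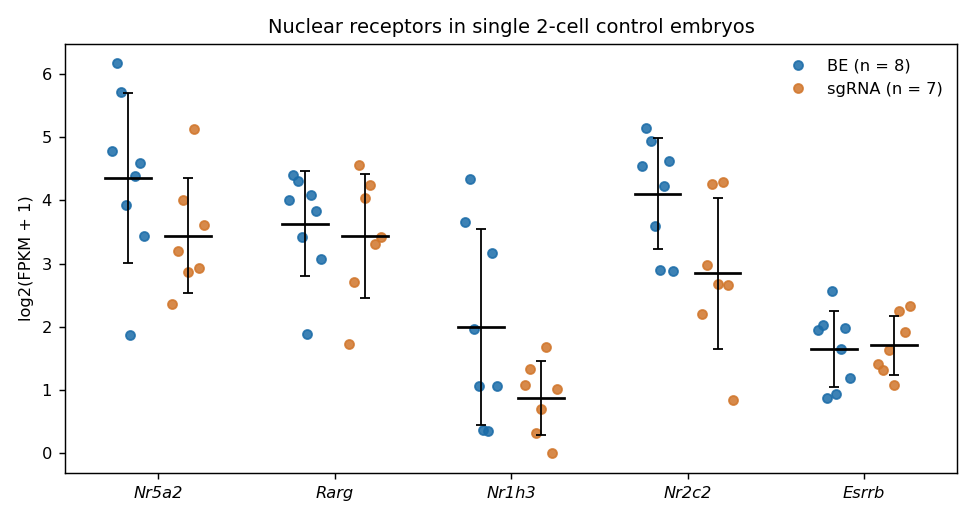
Each point is 1 embryo, on a scale of log2(FPKM + 1), for 5 nuclear receptor genes; horizontal lines are group means and bars are SD (8 BE and 7 sgRNA embryos). Nr5a2 ran from 2.65 to 70.8 FPKM in BE and from 4.12 to 33.9 in sgRNA embryos, and the groups overlapped for every gene shown.

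Across the transcriptome no gene passed the test between the controls. By the limits of the study's methods (adjusted p under 0.01 and a log2 difference of at least 2) 0 of 12329 genes tested were called, 0%, and at an adjusted p under 0.05 the limma fit also called 0 (smallest adjusted p = 0.868). At an unadjusted p under 0.05 there were 640 genes (5.19%), of which 527 (4.27%) were higher in BE and 113 (0.917%) were lower. The difference was above 0 for 8175 genes (66.3%), with a median of 0.18 over all genes. That lean towards BE shrank with other scalings and without sgRNA embryos 1 and 2. Of the genes at an unadjusted p under 0.05, 82.3% were higher in BE as deposited and 59.9% after median-ratio scaling. The share was 53.7% after quantile normalization and 48.7% without the 2 embryos. The median over all genes was then -0.003, -0.03 and 0.05. Within the shared run of library numbers, which holds neither of the 2 embryos, the lean stayed. There 81.6% were higher in BE, and the median over the genes of that fit was 0.21. With library-number runs in the model the values were 81.65% and 0.20. That model takes its difference between groups from the same shared run, so its values had to be close and are not separate evidence.

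A test that calls nothing does not show that the groups were alike, and the intervals say how much difference these embryos could have hidden. For 3111 of the 12329 genes (25.2%) the 95% interval lay within 1 either way on the scale of log2(FPKM + 1). A difference of 1 or more on that scale was outside it. For low genes a 2-fold change in FPKM is less than 1 on that scale, and with a pseudocount of 0.1 the number was 1035. For the other genes the interval reached 1 or more, and 803 genes (6.51%) had an estimated difference of at least 1. Ppib, a cyclophilin of the endoplasmic reticulum, was of the first kind: it was at 79.6 to 145 FPKM in BE and 93.9 to 133 in sgRNA embryos, a log2 difference of -0.11 with an interval from -0.71 to 0.49. Zscan4f was of the second, with an interval from -0.80 to 2.98.

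Of the 8 genes with the smallest p that were higher in BE embryos, each lay above the sgRNA median in at least 7 of 8 BE embryos. Zfp428, a zinc finger gene, had the smallest p: it was at 3.56 to 36.0 FPKM in BE embryos (median 11.9) and at 0 to 8.95 in sgRNA embryos (median 1.64), 3 of which listed it at 0. Its log2 difference was 2.39 ± 0.53 (SE; limma, p = 0.000229, adjusted p = 0.868), and 1.91 without sgRNA embryos 1 and 2. Timm8a1, an import chaperone of the mitochondrial intermembrane space, was at 44.1 to 302 FPKM in BE embryos and at 9.34 to 123 in sgRNA embryos, a difference of 1.90 ± 0.50 (SE). Mcts1, a factor for translation re-initiation, was at 14.2 to 61.1 FPKM in every BE embryo. In sgRNA embryos 3, 5 and 7 Mcts1 reached 16.2 to 20.7 FPKM, inside the BE range, and in the remaining 4 it did not pass 2.08. Foxi3, a forkhead factor, and Eda, the ligand ectodysplasin A, were lower in level, with medians of 8.79 and 10.7 FPKM in BE against 2.02 and 2.57 in sgRNA embryos.

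Only Rnf122 and Kcnrg had groups that did not overlap, 2 of 12329 genes (0.0162%), and they were named after their values were seen. Rnf122, a ubiquitin ligase with a RING domain, was at 26.9 to 65.6 FPKM in BE embryos (38.8 ± 13.1, SD, n = 8) and at 13.5 to 25.3 in sgRNA embryos (18.8 ± 4.99, SD, n = 7). Its log2 difference was 0.99 ± 0.31 (SE; limma, p = 0.00475, adjusted p = 0.868) and stayed between 0.87 and 1.06 when any 1 embryo was left out. Kcnrg, a regulator of potassium channels, was low in all embryos, at 0.533 to 2.37 FPKM in BE and at 0 to 0.511 in sgRNA embryos.

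Genes lower in BE embryos were fewer. Kcnmb3, an accessory subunit of the large-conductance potassium channel, was at 1.84 to 14.6 FPKM in BE embryos (median 3.39) and at 8.45 to 26.7 in sgRNA embryos (median 10.6). In 6 of 8 BE embryos it was under every sgRNA value, while BE embryos 4 and 6 lay inside the sgRNA range. The log2 difference was -1.25 ± 0.40 (SE; limma, p = 0.00495, adjusted p = 0.868). Gpx2, a glutathione peroxidase, was listed at 0 in 4 BE embryos and at 2.91 to 21.9 FPKM in all sgRNA embryos, and Dclre1c, the nuclease Artemis of DNA end joining, had medians of 0.872 and 4.69 FPKM. Uck1, a uridine-cytidine kinase, had medians of 2.37 and 6.76 FPKM, and no BE embryo lay above the sgRNA median. Cacng7, a channel accessory subunit that shared this last pattern, had medians of 3.18 and 12.7 FPKM. Without sgRNA embryos 1 and 2 the differences of these 5 genes ran from -0.96 for Dclre1c to -2.01 for Gpx2.

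Gene lists showed which classes the lean towards BE touched most, read against the median of 0.18 and the 5.19% of all genes tested. The lists of the study were defined on reference RNA-seq of staged embryos, not on these libraries. Of its 61 minor ZGA genes tested (of 62), 59 had a difference above 0 and 17 (27.9%) were higher in BE at an unadjusted p under 0.05, with 0 lower and a median difference of 1.01. Its 41 early 2-cell genes (of 42) were alike, with 40 above 0, 13 higher (31.7%), 0 lower and a median of 1.17. All 26 of the two-cell burst genes in the files (of 32 listed) had a difference above 0, 5 were higher and 0 were lower, with a median of 0.98. For the 1100 major ZGA genes tested (of 1105) the median was 0.53, 967 lay above 0, 97 were higher and 1 was lower (8.91% together). The 552 late 2-cell genes (of 559) had a median of 0.45, with 39 higher and 0 lower. These lists share genes, such as Usp17lb in the minor ZGA, early 2-cell and two-cell burst lists, so their counts are not separate evidence. No gene of any list reached an adjusted p under 0.05.

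Pramef25, Gm12794 and Gm13078, of the PRAME family of the 2-cell stage, had some of the smallest p in the early lists. Pramef25 was at 14.6 to 137 FPKM in BE embryos (median 81.7) and at 1.45 to 81.2 in sgRNA embryos (median 20.8), a log2 difference of 2.02 ± 0.69 (SE; limma, p = 0.00856, adjusted p = 0.868), which was 1.11 without sgRNA embryos 1 and 2. Gm12794 had medians of 61.3 and 7.91 FPKM, and Gm13078 of 129 and 19.9 FPKM. Obox3, a homeobox gene, was at 30.3 to 554 FPKM in BE and at 0.474 to 99.0 in sgRNA embryos, a difference of 1.84 and of 2.15 without those 2 embryos. Zfp352, a zinc finger gene of the 2-cell stage, had the narrowest range of these 5 genes: 37.4 to 169.6 FPKM in BE (median 125) and 18.2 to 119 in sgRNA embryos (median 47.8). For each of the 5 the lowest BE embryo lay above the lowest sgRNA embryo, and the ranges overlapped.

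The size of the lean in the early lists came down without sgRNA embryos 1 and 2, which had the highest Rn45s. The median difference was then 0.60 for the minor ZGA genes, 0.63 for the early 2-cell genes, 0.34 for the two-cell burst genes and 0.34 for the major ZGA genes, against 0.06 for all genes. With median-ratio scaling of all libraries the same medians were 0.80, 1.01, 0.72 and 0.32, against -0.003. In the shared run of library numbers they were 0.79, 1.05, 0.60 and 0.82, against 0.22.

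**Figure D2:**
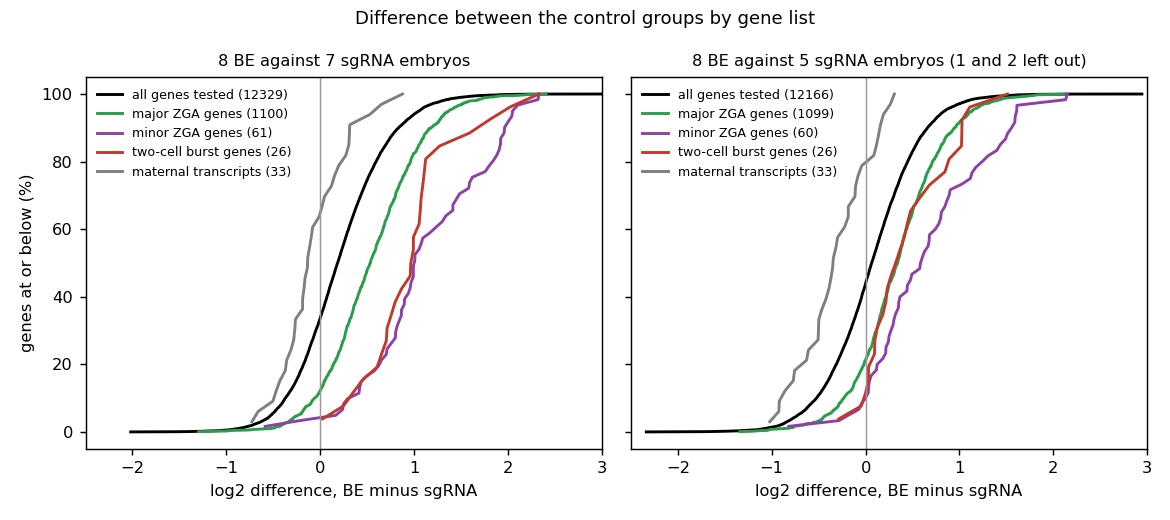
Lines give the share of genes, in percent, at or below each log2 difference (BE minus sgRNA) for all 12329 genes tested and for 4 gene lists, with all 7 sgRNA embryos on the left and without sgRNA embryos 1 and 2 on the right. The medians of minor ZGA and two-cell burst genes were 1.01 and 0.98 on the left and 0.60 and 0.34 on the right, against 0.18 and 0.06 for all genes tested.

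Oocyte transcripts did not share the lean. Of 33 maternal transcripts tested (of 34), 12 lay above 0, none had an unadjusted p under 0.05 in either direction, and the median was -0.13, with -0.34 without sgRNA embryos 1 and 2 and -0.48 within the shared run. Gdf9, a growth factor of the oocyte, was at 31.7 to 664 FPKM in BE and 40.3 to 736 in sgRNA embryos, a difference of -0.73 with an interval from -2.19 to 0.74. H1foo, the linker histone of the oocyte, had medians of 22.6 and 39.6 FPKM and lay under every sgRNA embryo in 5 of 8 BE embryos, a difference of -0.66. Dppa3, a maternal protein that protects the maternal genome from demethylation, went the other way, with medians of 1311 and 641 FPKM and a difference of 0.88 (limma, p = 0.151, adjusted p = 0.868), which was 0.14 without sgRNA embryos 1 and 2.

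The lists that could show a response to foreign mRNA, to a deaminase or to handling held few genes past an unadjusted p under 0.05. For RNA sensing and interferon response, 1 of 18 genes tested (of 36) was higher in BE, 0 were lower, and the median of 0.18 was that of all genes. That median turned to -0.04 without sgRNA embryos 1 and 2 and to -0.11 within the shared run of library numbers. That gene was Irf7, a transcription factor for interferon genes, at 3.10 to 23.1 FPKM in BE and at 0 to 15.2 in sgRNA embryos. Isg15, a ubiquitin-like interferon target, had medians of 1.28 and 1.29 FPKM. Uracil excision and mismatch repair had 0 of 24 genes (of 27) in either direction and a median of 0.08. The p53 list had 1 of 17 genes (of 19) higher, Aen, a nuclease of apoptosis, with medians of 15.2 and 6.18 FPKM. The median difference of the p53 list was 0.54, and 0.34 without sgRNA embryos 1 and 2 and 0.01 within the shared run. Cdkn1a, the p21 inhibitor of cyclin-dependent kinases and a classic p53 target, had medians of 42.3 and 42.8 FPKM, a difference of 0.08 with an interval from -0.78 to 0.95 (-0.29 without sgRNA embryos 1 and 2).

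Heat shock genes had 2 of 16 (of 17) higher, 0 lower, and a median of 0.48 (0.33 without sgRNA embryos 1 and 2 and 0.58 within the shared run). They were Bag3, a co-chaperone, with medians of 13.7 and 6.46 FPKM, and Hspb1, a small heat shock protein, with medians of 68.7 and 32.7 FPKM. The difference of Hspb1 was 1.79 and came down to 0.36 without sgRNA embryos 1 and 2, while that of Bag3 was 0.93 both ways. Ribosomal protein genes had 4 of 77 (of 84) higher, 0 lower and a median of 0.53, which was 0.37 without sgRNA embryos 1 and 2 and 0.93 within the shared run. Of the 4, Rpl13a, of the large subunit, was at 25.1 to 119 FPKM in BE (median 40.9) and at 7.37 to 74.8 in sgRNA embryos (median 18.2). Many ribosomal protein genes have near-identical processed copies, so their FPKM depended on how shared reads were placed. Cell cycle genes had 0 of 29 (of 30) in either direction and a median of 0.36. That median was 0.09 without sgRNA embryos 1 and 2, 0.12 with median-ratio scaling, 0.002 with quantile normalization and 0.49 within the shared run. Cdc20, the activator of the anaphase-promoting complex, was at 11.1 to 479 FPKM in BE and 10.4 to 245 in sgRNA embryos, so the range inside a group was wider than the difference of 1.56 between them (interval from -0.04 to 3.15; 1.03 without sgRNA embryos 1 and 2). No list named here had more than 1 gene lower in BE at an unadjusted p under 0.05.

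Embryo by embryo, the classes did not move as 1. Taking for each gene the distance from its median over the 15 embryos, the two-cell burst genes were low in BE embryo 5 (median -1.80, 1 of 26 genes above its median), in sgRNA embryo 1 (-1.67, 1 of 26), in sgRNA embryo 2 (-2.46, 2 of 26) and in sgRNA embryo 4 (-1.37, 1 of 26). They were high in BE embryo 8 (0.97, 18 of 26), in sgRNA embryo 7 (0.94, 19 of 26) and in BE embryo 1 (0.77, 20 of 26). Over all genes tested the median was 0.41 in BE embryo 1, with 8685 of 12329 genes above their median, and -0.53 in sgRNA embryo 2, with 3026 genes above, so these libraries were high or low as a whole. Both groups thus held embryos with low and with high burst genes, and the 4 lowest were 1 of 8 BE and 3 of 7 sgRNA embryos.

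The major ZGA genes had another order. They were highest in BE embryo 2 (median 1.20, 938 of 1100 genes above their median), BE embryo 3 (0.80, 888 genes), sgRNA embryo 5 (0.69, 860 genes) and BE embryo 1 (0.62, 849 genes), and lowest in sgRNA embryo 1 (-0.75, 171 genes). BE embryo 8 and sgRNA embryo 7, at the top for burst genes, were low for major ZGA genes (-0.62 and -0.47), and BE embryo 2, at the top for major ZGA genes, was at -0.38 for burst genes. Ribosomal protein genes went with the major wave: the 3 highest embryos were BE 2 (1.78), sgRNA 5 (1.19) and BE 3 (1.13), and the lowest was BE 8 (-1.23). The same 3 embryos had the highest Nr5a2, at 70.8, 33.9 and 51.3 FPKM, and the highest Cdc20, at 479, 245 and 268 FPKM, and they were also the 3 libraries with the highest FPKM sums, at 375454, 326026 and 316137. Maternal transcripts were lowest in sgRNA embryo 2 (-0.98), BE embryo 2 (-0.77) and BE embryo 3 (-0.51), and highest in BE embryo 4 (0.65) and sgRNA embryo 6 (0.58). These medians share genes and libraries and are a description.

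**Figure D3:**
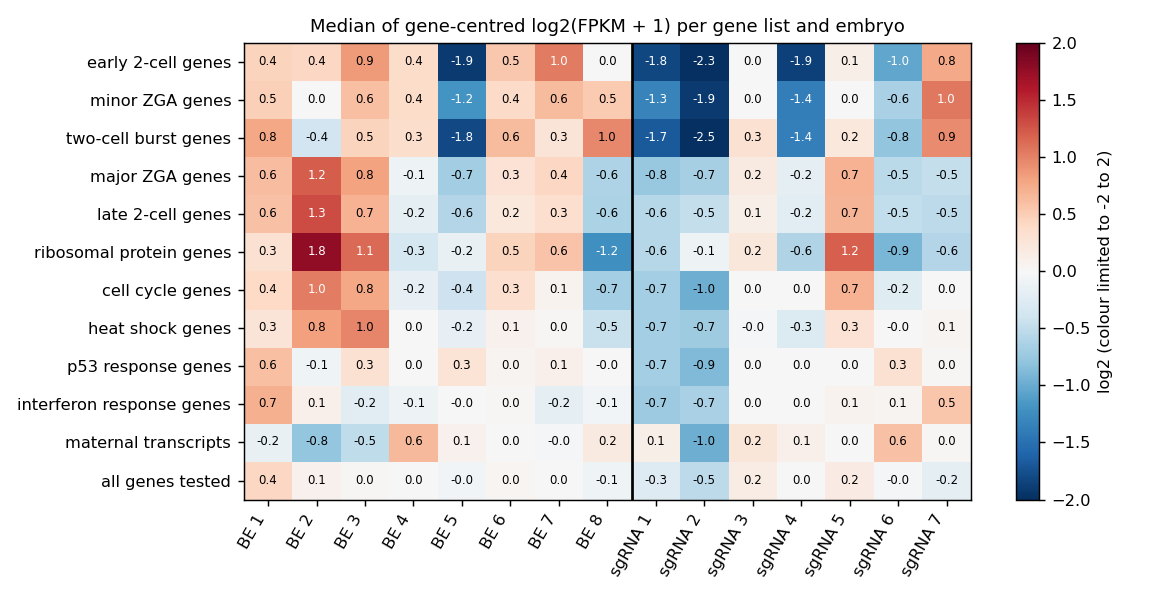
Each cell is the median over a gene list of log2(FPKM + 1) minus the gene's median over the 15 embryos, for 8 BE embryos (left of the line) and 7 sgRNA embryos; red is higher and blue lower. Burst and minor ZGA genes were low in BE 5 and sgRNA 1, 2 and 4, and major ZGA and ribosomal protein genes were high in BE 2, BE 3 and sgRNA 5.

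Single embryos of 1 group differed widely. The SD of log2(FPKM + 1) over embryos, per gene, had a median of 0.80 in the BE group and 0.83 in the sgRNA group over the 12329 genes, and from the 5th to the 95th percentile of genes it ran from 0.39 to 1.56 in BE and from 0.40 to 1.56 in sgRNA embryos. The SD was larger in BE for 5842 genes (47.4%). On this scale it did not shrink with level: the median was 0.76 in BE and 0.77 in sgRNA for 5005 genes at a mean of 1 to 5 FPKM, and 0.92 and 1.04 for 365 genes over 100 FPKM. The pseudocount of 1 holds down the SD of low genes, so these medians do not show how spread in FPKM ratios changed with level. Among 6137 genes with a mean of at least 5 FPKM in both groups, the median ratio of the highest to the lowest of the 15 embryos was 10.0, and 450 genes were listed at 0 in at least 1 embryo. Pearson correlations of log2 values between libraries were 0.604 to 0.916 within BE (median 0.780), 0.585 to 0.871 within sgRNA (median 0.742) and 0.622 to 0.915 between the groups (median 0.740). The most alike pair was BE embryos 2 and 3, and BE embryo 3 with sgRNA embryo 5, at 0.915, was as close.

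The genes that varied in 1 group tended to vary in the other. Over those 6137 genes the Spearman correlation of the 2 groups' SD was 0.53, a description across genes, which are not independent and which share mean level. After taking off the trend of SD with level, the top 10% held 614 genes in each group, of which 278 (45.3%) were the same genes. In both groups 43 genes had an SD over 2 and 110 had an SD under 0.4. As a comparison, for 4051 genes with at least 5 FPKM in both groups at both stages, the median SD was 0.87 and 0.91 in the 2-cell BE and sgRNA groups and 0.50 and 0.77 in the 8-cell BE and sgRNA groups (8 embryos each). The 8-cell libraries were also other library numbers, and stage and library preparation cannot be told apart.

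**Figure D4:**
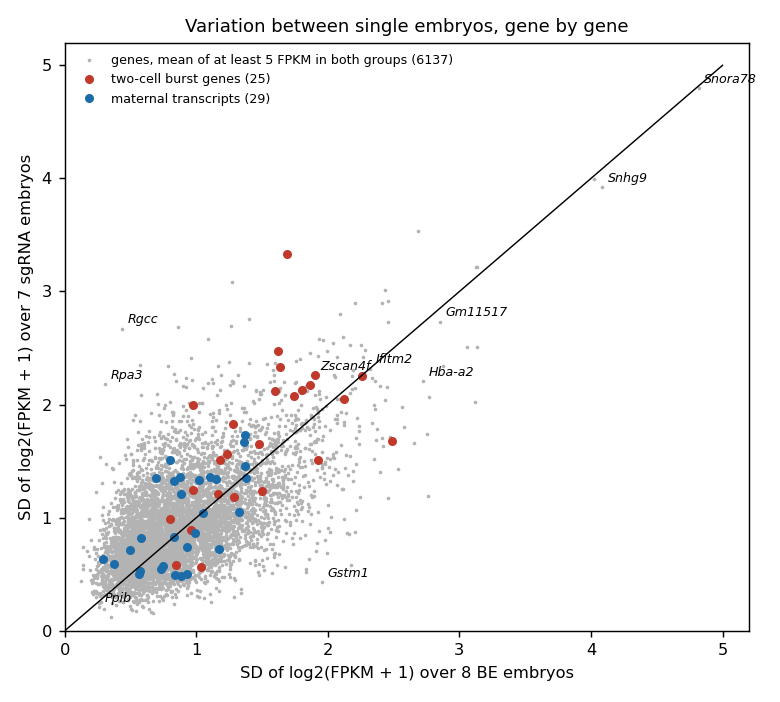
Each grey point is 1 of 6137 genes, at its SD of log2(FPKM + 1) over 8 BE embryos (horizontal) and over 7 sgRNA embryos (vertical), with two-cell burst genes in red, maternal transcripts in blue and the line of equal SD. Snora78 (4.82 and 4.80) and Snhg9 (4.09 and 3.92) were at the top right, Ppib (0.26 and 0.21) at the bottom left, and Rpa3 and Rgcc lay far above the line.

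Burst and minor ZGA genes were among the most variable of all classes in both groups. The median SD was 1.49 in BE and 1.67 in sgRNA for the 26 burst genes, 1.29 and 1.64 for the minor ZGA genes, and 1.49 and 1.86 for the early 2-cell genes. An SD above the trend with level in both groups was seen for 23 of 26 burst genes (88.5%) and 38 of 41 early 2-cell genes, against 3991 of 12329 genes (32.4%) in all. Major ZGA genes had medians of 1.07 and 1.01, with 617 of 1100 genes above the trend in both groups, and maternal transcripts 0.89 and 1.04, with 15 of 33. Ribosomal protein genes had medians of 1.10 and 1.06, with 53 of 77 above the trend in both.

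The Zscan4 genes, zinc finger genes that mark the burst and lie in a cluster on chromosome 7 in the mouse, had wide ranges. Zscan4c (mm9 chr7:11591071-11595896, plus strand), Zscan4d (chr7:11746992-11751497, minus strand) and Zscan4f (chr7:11983264-11988090, plus strand) are near-identical copies, so their FPKM depended on how shared reads were divided. In the GENCODE M1 transcripts of mm9 each has a coding sequence of 1521 bases, the 3 differ at 38 positions, and 68.8% of the 100-base stretches of Zscan4c are also in Zscan4f, against 22.9% in Zscan4d. A stretch rich in differing positions, coding bases 1032 to 1091, is printed to show how little sets the copies apart, with the 6 differing positions in capitals.
Zscan4c: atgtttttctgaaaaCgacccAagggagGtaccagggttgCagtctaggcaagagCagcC
Zscan4d: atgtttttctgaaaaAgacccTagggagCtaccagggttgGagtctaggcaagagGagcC
Zscan4f: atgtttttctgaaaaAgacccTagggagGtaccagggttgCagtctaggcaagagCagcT

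Zscan4f was at 199.5, 21.9, 73.7, 97.0, 5.00, 35.8, 27.6 and 388 FPKM in BE embryos 1 to 8. In sgRNA embryos 1 to 7 it was at 17.4, 1.07, 25.1, 34.2, 39.6, 12.1 and 399 FPKM. Each group thus held 1 embryo far above the median of its group, the highest of all was 371-fold over the lowest, and the groups overlapped. The SD of Zscan4f was 1.90 in BE and 2.26 in sgRNA embryos, and the difference between groups was 1.09 ± 0.91 (SE; limma, p = 0.242, adjusted p = 0.868), and 0.27 without sgRNA embryos 1 and 2 and 0.54 within the shared run. Zscan4c ran from 4.27 to 235 FPKM in BE and from 0.677 to 209.7 in sgRNA embryos, and Zscan4d from 2.18 to 149 and from 5.44 to 113. Tcstv3, of another burst family, ran from 25.3 to 535 and from 3.10 to 288 FPKM, and Gm5662 from 20.1 to 635 and from 1.47 to 301. Usp17lb, a deubiquitinase gene of the same wave with close paralogs, was at 9.81 to 512 FPKM in BE embryos and at 0 to 233 in sgRNA embryos. Dux, the homeobox factor that acts upstream of these genes at an earlier time, was at or under 5.28 FPKM in BE and 7.78 in sgRNA embryos and was listed at 0 in 4 embryos of each group.

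**Figure D5:**
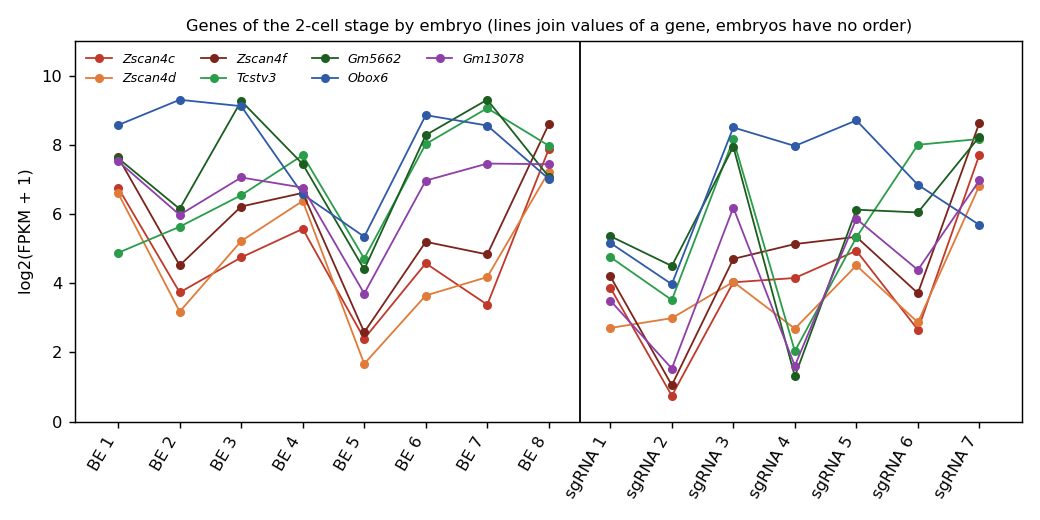
Each line is a gene of the 2-cell stage on a scale of log2(FPKM + 1), with 1 point per embryo, 8 BE embryos left of the vertical line and 7 sgRNA embryos right of it; lines only join points of 1 gene, and embryos have no order. Zscan4f reached 388 FPKM in BE 8 and 399 in sgRNA 7, all 7 genes were low in BE 5 and sgRNA 2, and Tcstv3, Gm5662 and Gm13078 were also low in sgRNA 4.

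The most variable genes in both groups, by the excess of SD over the trend, included small nucleolar RNAs and genes of the 2-cell wave such as Zscan4b and Rfpl4b. Snora78, a small nucleolar RNA, was listed at 0 in 11 of 15 embryos and was at 1428 and 1287 FPKM in BE embryos 6 and 7, and at 1083 and 755 in sgRNA embryos 3 and 7. It lies inside Snhg9, its host RNA (mm9 chr17:24856476-24856910, minus strand), which was listed at 0 in 2 embryos of each group and otherwise ran from 59.1 to 1008 FPKM. Reads of the 2 genes cannot be told apart where they overlap, so both values are uncertain. Snora81 and Snora74a, of the same class, were listed at 0 in 12 and 11 embryos. Hba-a2, an adult alpha globin, was at 228 FPKM in BE embryo 1 and 60.2 in sgRNA embryo 6 and did not pass 0.141 FPKM in any other embryo. Hba-a1, a near-identical copy of it, was above 5 FPKM in all 15, so the split of reads between the copies is uncertain.

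Other genes at the top also had wide ranges. Gm11517 was at 13.1 to 2394 FPKM in BE embryos (median 652) and at 4.02 to 687 in sgRNA embryos (median 47.0). Cphx2, a homeobox gene of the cleavage embryo, ran from 0.0635 to 111 FPKM in BE and from 0.0601 to 107 in sgRNA embryos. Bex1 ran from 0.693 to 106 in BE and from 0 to 85.9 in sgRNA embryos. Ifitm2, an interferon-induced membrane protein, was at 107 FPKM in BE embryo 5 and at no more than 4.63 in any other BE embryo, and reached 78.5 in sgRNA embryo 7. Mt1, a metallothionein, was among the abundant variable genes, at 58.9 to 3244 FPKM in BE and 34.3 to 2608 in sgRNA embryos. Of the maternal transcripts, Tcl1, a coactivator of the kinase AKT, ran from 155 to 2683 and from 85.4 to 1824 FPKM, and Btg4, an adaptor for removal of poly(A) tails from oocyte RNA, from 86.4 to 1462 and from 60.2 to 948.

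At the other end were genes that hardly differed between embryos. Ppib had an SD of 0.26 in BE and 0.21 in sgRNA embryos and differed 1.82-fold between the lowest and the highest of all 15. Rmnd5a, a subunit of a ubiquitin ligase complex, was at 15.4 to 30.8 FPKM, Ep400, a chromatin remodeller, at 4.77 to 9.59, and Kat6a, a histone acetyltransferase, at 9.11 to 18.8. Exosc8, of the RNA exosome, was at 40.8 to 86.3 FPKM and Pola1, the catalytic subunit of DNA polymerase alpha, at 8.78 to 17.7. The remaining 4 of the 10 genes chosen were Brap, Myo1c, Tpt1 and Evi5, and the widest ratio among the 10 was 2.80, for Tpt1.

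Whether 1 control group was more variable than the other was tested gene by gene, on each embryo's distance from its group mean, on the log2 scale. At an adjusted p under 0.05 (limma, Benjamini-Hochberg) 71 of 12329 genes (0.576%) were called, 39 with a wider spread in BE and 32 with a wider spread in sgRNA embryos. At an unadjusted p under 0.05 there were 1048 genes (8.5%), 400 wider in BE (3.24%) and 648 wider in sgRNA embryos (5.26%). Most of the 71 genes called were at or near 0 in 1 group. Of these 71, 41 were listed at 0 in every embryo of a group and 59 stayed under 1 FPKM in every embryo of a group. With a mean of at least 5 FPKM in both groups 7 genes were called, Ankrd37, Arf1, Cd164, Gpr137b-ps, Rgcc, Rpa3 and Uqcc2, and all 7 had the wider spread in sgRNA embryos.

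Rpa3, the small subunit of the single-strand DNA binding protein RPA, was at 33.6 to 63.3 FPKM in BE embryos (SD 0.31). In sgRNA embryos 1 to 7 Rpa3 was at 6.29, 0, 63.0, 63.0, 48.5, 30.5 and 20.1 FPKM (SD 2.18; adjusted p = 0.00318 by limma for the difference in spread). Arf1, a GTPase of vesicle transport, was at 83.9 to 169.5 FPKM in BE embryos, and at 19.7 and 22.7 in sgRNA embryos 1 and 2 against 132 to 259.9 in the remaining 5 (adjusted p = 0.0213). Rgcc, a regulator of cell cycle, was at 16.0 to 34.8 FPKM in BE and at 0 to 114 in sgRNA embryos (adjusted p = 0.0043). Both sgRNA embryos 1 and 2 were under every BE embryo for Rpa3, Arf1, Cd164, Rgcc and Gpr137b-ps. So were sgRNA embryos 6 and 7 for Rpa3, 4 and 6 for Rgcc, and 7 for Gpr137b-ps. Without sgRNA embryos 1 and 2, 3 of the 7 genes were still called. After median-ratio scaling 2 were called, and after quantile normalization 2. Within the shared run of library numbers 0 were called, and with no trend in the variance 0. In the other direction the gene with the smallest p at this level was Gstm1, a glutathione transferase, at 0 to 39.0 FPKM in BE (SD 1.95) and 18.7 to 45.9 in sgRNA embryos (SD 0.43), which was not called (adjusted p = 0.0709).

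Y-linked genes split the embryos of both groups. Of 8 Y-linked genes in the files, 6 or 7 were above 0 in 7 embryos, 3 BE and 4 sgRNA, with a sum of 4.91 to 44.9 FPKM, and all 8 were at 0 in the other 8 embryos, 5 BE and 3 sgRNA. Eif2s3y, a translation initiation factor of the Y chromosome, reached 21.1 FPKM. Xist, which coats the inactive X chromosome, did not pass 3.37 FPKM in any embryo, and no X-linked gene of the list was different at an unadjusted p under 0.05 (0 of 8 tested, median difference 0.34, and 0.63 within the shared run). The list is short. Timm8a1, Mcts1 and Eda, named above among the 8 genes with the smallest p that were higher in BE, also lie on the X chromosome but are not in it. X-linked genes as a whole were not tested.

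The labelled stage was checked by markers. No burst gene stayed under 1 FPKM in all embryos, and their summed level was 337 to 3121 FPKM in BE and 303 to 2738 in sgRNA embryos. Of 15 markers of the cumulus and granulosa cells around the oocyte, 6, Amh, Fshr, Inhba, Foxl2, Has2 and Lhcgr, were under 1 FPKM in every embryo, and the summed level was 19.4 to 57.5 in BE and 9.41 to 30.7 in sgRNA embryos. BE embryo 5 was at the top of that range, with Star at 18.7 and Cyp11a1 at 27.2 FPKM, both of steroid synthesis. Other markers of the list were low in BE embryo 5. Amhr2 was at 1.84 FPKM, against 4.52 to 45.5 in the other BE embryos, and Tnfaip6 was listed at 0. Hsd3b1, a steroid enzyme named after its values were seen, was at 74.2 FPKM there and at no more than 0.211 in the other BE embryos. BE embryo 5 was also the BE embryo with the lowest burst genes, and had the lowest Nr5a2. Of genes that the study assigns to later stages, 36 of 42 inner cell mass genes tested (of 131) lay above their median over the 15 embryos in it (median 1.15). So did 10 of 15 8-cell genes (of 46, median 0.85) and 5 of 8 4-cell genes (of 15, median 0.91), against 40.3% of all genes tested. Only genes with a mean of at least 1 FPKM in a group were tested, and some passed through this embryo. Crygs, from these lists, was at 10.5 FPKM in it and at 0 in the other BE embryos. The filter thus partly set these counts, and they do not test its stage. Other embryos were high in parts of these lists. BE embryo 1 had 31 of 42 inner cell mass genes above (73.8%, median 0.93) and 7 of 8 4-cell genes (0.80). The first share is near the 70.4% of all genes tested that lay above their median in that embryo. sgRNA embryo 7 had 9 of 15 8-cell genes above (0.79), against 34.8% of all genes tested. sgRNA embryo 4 had 8 of 8 4-cell genes above (0.59), against 47.4% of all genes tested. The header and label of BE embryo 5 both gave the 2-cell stage, and the part of the steroid genes in its profile was not tested. Sperm markers summed to 0 to 44.5 FPKM in BE and 0 to 34.1 in sgRNA embryos, with the protamine Prm1 above 0 in 1 embryo only. Blood and connective tissue markers summed to 7.79 to 258 and 35.5 to 211 FPKM, with Hba-a1 at 5.57 to 245, while Hbb-b1, Ptprc and Col3a1 were at 0 in all embryos.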

How the data were processed

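The deposited values were FPKM per gene, which the authors made with TopHat and Cufflinks on mm9 with the refFlat annotation, per the study's methods; Rpl26 was listed under 0.01 FPKM in 11 of 15 embryos, so a 0 may be a failed estimate. Groups came from the labels, and 1 sgRNA library with a 4-cell header was left out. No pair of libraries was identical. limma 3.58.1 in R 4.3.3 was fitted to log2(FPKM + 1) for 12329 genes with a mean of at least 1 FPKM in a group, with a variance trend and Benjamini-Hochberg adjustment. FPKM are not counts, so the study's count test was not used. Fold changes of low genes are understated by the pseudocount of 1. Spread was tested by the same fit on each embryo's distance from its group mean, scaled for group size, and excess SD was SD minus a lowess fit (fraction 0.3) on mean level. Single values per embryo were compared by exact permutation over 6435 splits. The limma fits of level and spread were tested on simulated data. Named genes were 5 receptors, the 8 smallest p per direction at 5 FPKM or more, the 20 most and 10 least variable, the 4 smallest spread p per direction, and up to 3 genes per list and ranking, of which 2 are not reported here. The members, lists and rules were chosen with earlier results of these data known. Alternatives were another pseudocount, filters, scalings, a replicate block, the left-out library, the third group, library numbers, and each embryo left out. Leaving out sgRNA embryos 1 and 2 together was not planned.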

Additional observations from a re-analysis of the deposited data

Results flagged for a closer look

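Of 190 groups of 7 or 8 embryos looked at (a gene or a library measure in 1 control group), 18 had a lowest or highest embryo that stood apart by Dixon's ratio, and chance alone flags about 1 in 20 groups. Most of these genes were named for their values in these embryos, so that rate is no benchmark for the number seen. BE embryo 5 was such an embryo for 7 genes: Star was at 18.7 FPKM, Cyp11a1 at 27.2, Hsd3b1 at 74.2 and Ifitm2 at 107, all above the other BE embryos, while Gm13078 at 12.02 FPKM and Gpr137b-ps at 24.0 were below them. Rfpl4b, a gene of the 2-cell stage, was listed at 0 in BE embryo 5 and at 42.7 FPKM or more in the other BE embryos. Timm8a1 stood apart upwards in both groups, at 302 FPKM in BE embryo 3 and at 123 in sgRNA embryo 3, and Hba-a2 did so at 228 FPKM in BE embryo 1 and at 60.2 in sgRNA embryo 6. In sgRNA embryo 3 Ppp1r2-ps7 was at 7.62 FPKM. In sgRNA embryo 7 Dux was at 7.78 FPKM and Isg15 at 15.5 FPKM. Snora81 was at 1510.4 FPKM in sgRNA embryo 1 and Cyp11a1 at 1.14 FPKM. Obox3 was at 0.474 FPKM in sgRNA embryo 4, against 21.6 in the next lowest. sgRNA embryo 2 had 9372 genes at 1 FPKM or more, against 10471 in the next lowest.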

How the results depend on the processing

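No alternative called a gene between the groups at an adjusted p under 0.05 (0 in each, 0 with any 1 embryo left out), against 640 genes at an unadjusted p under 0.05. Genes with an interval within 1 numbered 3111, and 1035 with a pseudocount of 0.1, 1402 at a mean of at least 5 FPKM, 492 with library-number runs in the model, 229 within the shared run, 9963 with no filter on low values, and 2313 to 3112 with 1 embryo left out. Genes called for spread numbered 71, and 44 with a pseudocount of 0.1, 412 with no filter on low values, 6 at a mean of at least 5 FPKM, 3 with no variance trend, 21 with library-number runs in the model, 135 within the shared run, and 66 to 101 with 1 embryo left out. The cause of these moves was not tested. The difference in genes at 1 FPKM or more was 173, and -97.1 without sgRNA embryos 1 and 2 and -31.3 to 262 with 1 embryo left out, negative without sgRNA embryo 2; that in FPKM sum was 46294, 32378 to 62007 with 1 embryo left out and 16426 without sgRNA embryos 1 and 2. Nr5a2 ran from 0.65 to 1.27 with 1 embryo left out. Rarg turned to -0.0352 with median-ratio scaling, -0.10 with quantile normalization, -0.29 without sgRNA embryos 1 and 2, and ran from -0.0880 to 0.44 with 1 embryo left out. Esrrb turned to 0.00709 with the replicate block and ran from -0.19 to 0.0518 with 1 embryo left out. Of 971 alternative values of 36 genes, 10 changed sign, all of these 2 genes. The replicate numbers did not pair embryos: deviations of the 7 same-numbered pairs correlated at -0.545 to 0.2702, 2 of them over 0.1, and 0 BE embryos were most like the sgRNA embryo of their number. With the number as a block, 0 genes were called, 683 had an unadjusted p under 0.05, 85 were called for spread and Nr5a2 was at 1.04. A fit within the BE4 library numbers was not run, since no sgRNA embryo lay there.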

Other observations

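The sgRNA library whose header gave the 4-cell stage had 7620 genes at 1 FPKM or more, under the 9372 to 11128 of the 7 sgRNA embryos analysed. Nr5a2 was at 70.6 FPKM in it and Zscan4f was listed at 0, while Rn45s was at 31843 FPKM.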
